A study of Mus musculus with 14 samples.

Results

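The genes described here encode the subunits of the proteasome. They were taken as every row of the count table whose symbol is Psma, Psmb, Psmc or Psmd followed by a number and whose biotype is protein coding. This gave 39 genes of 55487. Of these, 15 encode the core particle (8 alpha and 7 constitutive beta subunits), 4 encode immunoproteasome-type beta subunits, and 20 encode the regulatory particle or its assembly chaperones. A filter on low counts kept 16876 genes for testing, among them 38 of the 39. Psmb11, with 0 to 6 estimated counts per library, did not pass it.

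The proteasome degrades proteins that carry ubiquitin chains. Its core particle is a barrel in which outer rings of alpha subunits gate the entry and inner rings of beta subunits hold the cutting sites. A regulatory particle caps the barrel: its lid removes ubiquitin, and the ATPase ring of its base unfolds the substrate and feeds it into the core. In cells exposed to interferon gamma, and in many immune cells, the cutting subunits encoded by Psmb5, Psmb6 and Psmb7 are replaced in new particles by those of Psmb8, Psmb9 and Psmb10, which favours peptides for display by class I histocompatibility molecules.

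Bulk RNA was sequenced from sorted GFP-positive cells of the mouse ureteric bud, the epithelium that branches into the collecting ducts, at E13.5. The GFP marks cells of the lineage in which the Hoxb7-Cre transgene acts. The 14 libraries comprise 5 labelled Cep120 KO (libraries 2, 4, 5, 6 and 7, titled homozygous), 3 controls of that line, 3 labelled Pkd1 KO (titled homozygous) and 3 controls of the Pkd1 line. The genotype given for all 6 controls is WT, although the titles call them heterozygous. The product of Cep120 is required for centriole assembly. Pkd1 encodes the membrane protein polycystin-1. Whether each replicate is 1 embryo or a pool is not stated in the labels, and the p-values therefore refer only to the variation among these 14 libraries, part of which may be technical.

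Library depth was 11347657 to 27967596 estimated counts. The Cep120 gene had 7.87, 19.5, 21.2, 13.1 and 16.5 CPM (counts per unit of library size, scaled by the TMM method) in libraries 2, 4, 5, 6 and 7 labelled Cep120 KO, against 10.6, 6.41 and 9.45 CPM in controls 1, 2 and 3. Cep120 reads were therefore not reduced there (log2 fold change 0.83, SE 0.31, edgeR adjusted p = 0.0832), and the gene count does not show the loss that the label states. Library 2 lay inside the range of the controls. The Pkd1 gene measured 2.68, 2.39 and 2.42 CPM in Pkd1 KO libraries, against 4.60, 3.34 and 3.84 CPM in their controls, each KO value being under each control (log2 fold change -0.65, SE 0.43, edgeR adjusted p = 1). The labels do not give the deleted exons, and reads outside them would check neither label. The summed level of 12 ureteric bud markers was 1444 and 2087 CPM in libraries 6 and 7 labelled Cep120 KO, against 3564 to 4201 CPM in the other 12 libraries. Ret, Wnt11, Gfra1, Gata3, Cdh1, Epcam, Krt18 and Calb1 were each lower there than in all other libraries. Krt8 and Wnt9b overlapped the others, and Pax2 was higher. Hoxb7 was not lower, at 77.4 and 91.3 CPM against 69.7 to 93.6 CPM in the Cep120-line controls. For 8 nephron progenitor markers the sum was 791 and 605 CPM in libraries 6 and 7, against 31.6 to 69.7 CPM elsewhere. In bulk RNA, fewer cells of a type and less RNA per cell cannot be told apart. Libraries 4 and 5 were the most alike of the replicate pairs compared, with a chi-square per gene of 4.54 where no other pair was under 12.6, which is still beyond sampling noise, and they were counted as separate samples.

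Promoters of the cutting-subunit genes are shown first, because the constitutive and inducible members of each pair are known to be driven differently. Antioxidant response elements are known to drive constitutive subunit genes, and interferon-responsive sites the inducible ones. The sequences are from RefSeq (GRCm38.p6) and run 5′ to 3′ from 250 bases before to 50 bases after the annotated start, with motif matches in capitals. Psmb5 (chr14:54617946-54618245, minus strand) and Psmb6 (chr11:70525107-70525406, plus strand) each hold 1 antioxidant response element match, and Psmb8 (chr17:34197945-34198244, plus strand) holds 1 gamma-activated site match. Psmb9 (chr17:34187281-34187580, minus strand) holds no match, nor does that of Psmb10. The windows of Psmb8 and Psmb9 lie wholly inside the gene bounds of GENCODE M21 (34197721 to 34201454 and 34181987 to 34187764). These 2 windows therefore hold no bases before those bounds, and matches there would not be seen in them.
Psmb8: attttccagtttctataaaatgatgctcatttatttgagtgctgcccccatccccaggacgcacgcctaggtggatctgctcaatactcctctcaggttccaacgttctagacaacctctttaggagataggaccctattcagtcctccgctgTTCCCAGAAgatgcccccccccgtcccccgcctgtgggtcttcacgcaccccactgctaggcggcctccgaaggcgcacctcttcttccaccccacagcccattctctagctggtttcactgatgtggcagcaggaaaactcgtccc
Psmb5: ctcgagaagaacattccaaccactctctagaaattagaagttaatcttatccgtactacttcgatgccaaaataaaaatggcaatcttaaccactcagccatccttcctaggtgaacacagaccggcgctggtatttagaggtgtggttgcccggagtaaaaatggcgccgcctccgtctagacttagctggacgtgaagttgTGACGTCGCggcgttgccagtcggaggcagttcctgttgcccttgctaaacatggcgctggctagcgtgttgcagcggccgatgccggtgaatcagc
Psmb9: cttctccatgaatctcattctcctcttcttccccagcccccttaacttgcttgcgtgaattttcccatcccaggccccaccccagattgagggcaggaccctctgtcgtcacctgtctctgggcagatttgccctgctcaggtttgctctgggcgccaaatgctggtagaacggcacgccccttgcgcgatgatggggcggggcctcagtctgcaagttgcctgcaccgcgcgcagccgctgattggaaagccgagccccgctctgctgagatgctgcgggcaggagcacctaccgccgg
Psmb6: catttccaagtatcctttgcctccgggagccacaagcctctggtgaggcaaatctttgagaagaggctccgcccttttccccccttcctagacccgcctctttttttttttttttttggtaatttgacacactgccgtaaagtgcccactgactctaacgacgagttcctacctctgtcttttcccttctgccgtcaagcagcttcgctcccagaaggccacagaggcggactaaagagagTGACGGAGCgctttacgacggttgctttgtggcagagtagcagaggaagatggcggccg
The capitals begin 97 bases before the annotated start in Psmb8, 47 in Psmb5 and 9 in Psmb6. RefSeq promoters were listed for 32 of the 39 genes, 34 promoters in all. The antioxidant response element (TGACNNNGC) was matched on either strand in 5 of the 34 (14.7%), against 12.4% of all 32851 promoters listed. The gamma-activated site (TTCNNNGAA) was matched in 2 (5.88%), against 8.30% of all, and the interferon-stimulated response element in 3 (8.82%), against 3.44% of all. The genes with the last of these motifs were Psmb3, Psmd4 and Psmd9, none of the immunoproteasome type. Psmd9 alone held matches to more than 1 of these motifs, and those matches did not overlap.

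Levels between genes were compared in the deposited TPM (a relative abundance per transcript length), as means over the 6 controls. Core subunits filled the top of the order. Psmb6, a cutting subunit, led at 1549 ± 94.6 TPM (SD, n = 6), ahead of the alpha subunit Psma7 at 1213 ± 111 TPM by more than the spread of either. Psmb3 followed at 950 ± 106 TPM and Psmb2 at 776 ± 35.3 TPM. Psma6 and Psma5, at 544 ± 31.0 and 532 ± 33.5 TPM, did not differ beyond their spread, and neither did Psma4 and Psmb5, at 387 ± 24.3 and 386 ± 114 TPM. The ATPase genes lay between 176 ± 10.4 TPM (Psmc2) and 380 ± 20.4 TPM (Psmc4). Most lid genes were in a similar range, from 98.0 ± 7.52 TPM (Psmd12) to 268 ± 9.49 TPM (Psmd14, the deubiquitinase). The lid subunit gene Psmd3 was far lower, at 17.2 ± 4.94 TPM. The base chaperones Psmd10, Psmd5 and Psmd9 had 61.9 ± 3.58, 46.5 ± 5.35 and 44.4 ± 5.5 TPM, and Psmd5 and Psmd9 did not differ beyond their spread.

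The tissue-restricted forms were near 0. Psma8, an alpha subunit known from meiotic germ cells, had 0.673 ± 0.50 TPM (SD, n = 6) and 6 to 60 estimated counts per library. Psmb11, the beta subunit of thymic epithelium, had 0.0840 ± 0.182 TPM. It was at 0 counts in 7 of 14 libraries, and a count of 0 allows up to 3 counts, or 0.107 to 0.264 unscaled CPM depending on the library. These limits cover counting error only.

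Among immunoproteasome-type subunits, only Psmb10 was well above the limit of counting. Psmb8 (ENSMUSG00000024338, chromosome 17, 34197721 to 34201454, plus strand, GRCm38, GENCODE M21) had 0, 7, 5, 33 and 23 estimated counts in libraries 2, 4, 5, 6 and 7 labelled Cep120 KO, against 8, 23 and 5 in controls 1, 2 and 3. It had 0, 7 and 5 counts in the Pkd1 KO libraries, against 0, 0 and 4 in their controls. Its TPM was at most 0.430% of that of its counterpart Psmb5 in any library. Psmb9 (ENSMUSG00000096727, chromosome 17, 34181987 to 34187764, minus strand) had 4 to 40 counts, and its TPM was at most 0.169% of that of Psmb6. Its exons overlap those of Tap1 on the other strand, and the kit does not mark strand, so reads of the pair cannot be told apart. Psmb10 (ENSMUSG00000031897, chromosome 8, 105935735 to 105938444, minus strand) had 24.4 to 48.7 TPM. It reached 11.7 ± 1.56% of the TPM of its counterpart Psmb7 in the libraries labelled Cep120 KO (SD, n = 5) and 13.0 ± 1.53% in their controls (n = 3), a difference within the spread. In the Pkd1 line the share was 10.3 ± 0.312% in KO libraries and 12.1 ± 1.71% in controls (n = 3 each). These shares compare whole-gene values, not coding transcripts. The coding transcript held only 18.0 to 35.1% of Psmb10 counts over the 14 libraries, against 98.4 to 99.4% for Psmb7.

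**Figure D1:**
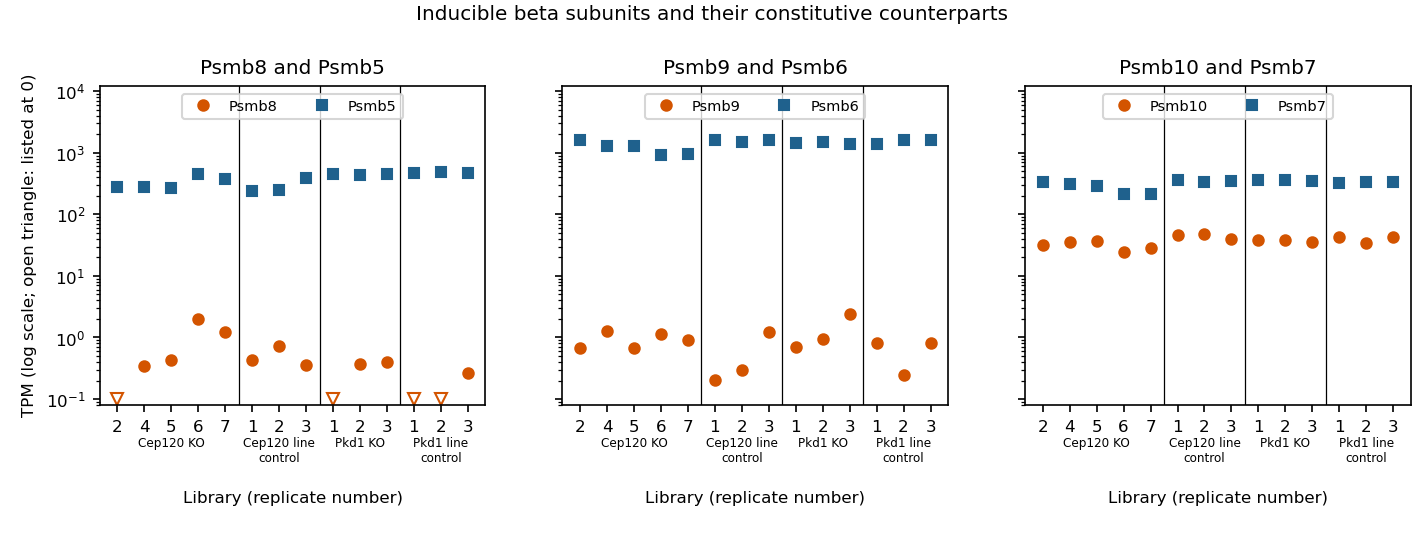
Deposited TPM, on a log axis, of Psmb8, Psmb9 and Psmb10 (circles) and of their constitutive counterparts Psmb5, Psmb6 and Psmb7 (squares) in each of the 14 libraries, with open triangles for values listed at 0. Psmb8 and Psmb9 lie at 2.37 TPM or below in each library, while Psmb10 runs from 24.4 to 48.7 TPM.

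Core particle genes were lower in the libraries labelled Cep120 KO than in their controls. Of 15 core genes, 11 fell and 0 rose (adjusted p under 0.05 in the quasi-likelihood test of edgeR, with Benjamini-Hochberg adjustment over all 16876 genes). Of 20 regulatory genes, 3 fell and 1, Psmd3, rose. Of the 3 immunoproteasome-type genes tested, Psmb10 fell. Over the 38 genes this makes 16 calls, 15 lower and 1 higher, where 14.7% of all genes were called, 6.26% lower and 8.4% higher. The median log2 fold change was -0.82 for core genes and -0.32 for regulatory genes, beside 0.12 for all genes tested. For 16 of the 38 genes all 5 libraries lay below all 3 controls, and for 0 genes above, where 8.75% and 6.41% of all genes did so. These 16 comprise 8 core genes, Psmb10 and 7 regulatory genes. Library-wide measures moved with these values: the mitochondrial share of counts was 4.69, 2.15, 2.25, 3.61 and 2.98% in libraries 2, 4, 5, 6 and 7, against 5.69, 5.26 and 3.96% in the controls. TMM scaling factors were 0.908, 1.15, 1.15, 1.28 and 1.32 in the libraries labelled Cep120 KO, in the same order, against 0.862, 0.887 and 0.896 in the controls. Their part in the result was not tested.

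The number of calls rested on few libraries. With edgeR, 0 genes of the family were called without library 7, and 0 without any one of the 3 controls, where 19 to 22 were still at an unadjusted p under 0.05. Over all genes, 5 were called higher and 3 lower without library 7, and at most 3 in either direction without any one control. Only Psmb10 was called without library 6, where 1.9% of all genes were. When library 2 was left out, 25 genes of the family and 34% of all genes were called. Leaving out library 4 gave 6 of the family and 9.27% of all genes, and leaving out library 5 gave 4 and 7.72%. Leaving out any one library of the Pkd1 line gave 7 of the family, with 7.28 to 8.05% of all genes. The number of calls thus moved over all genes as well as in the family.

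**Figure D2:**
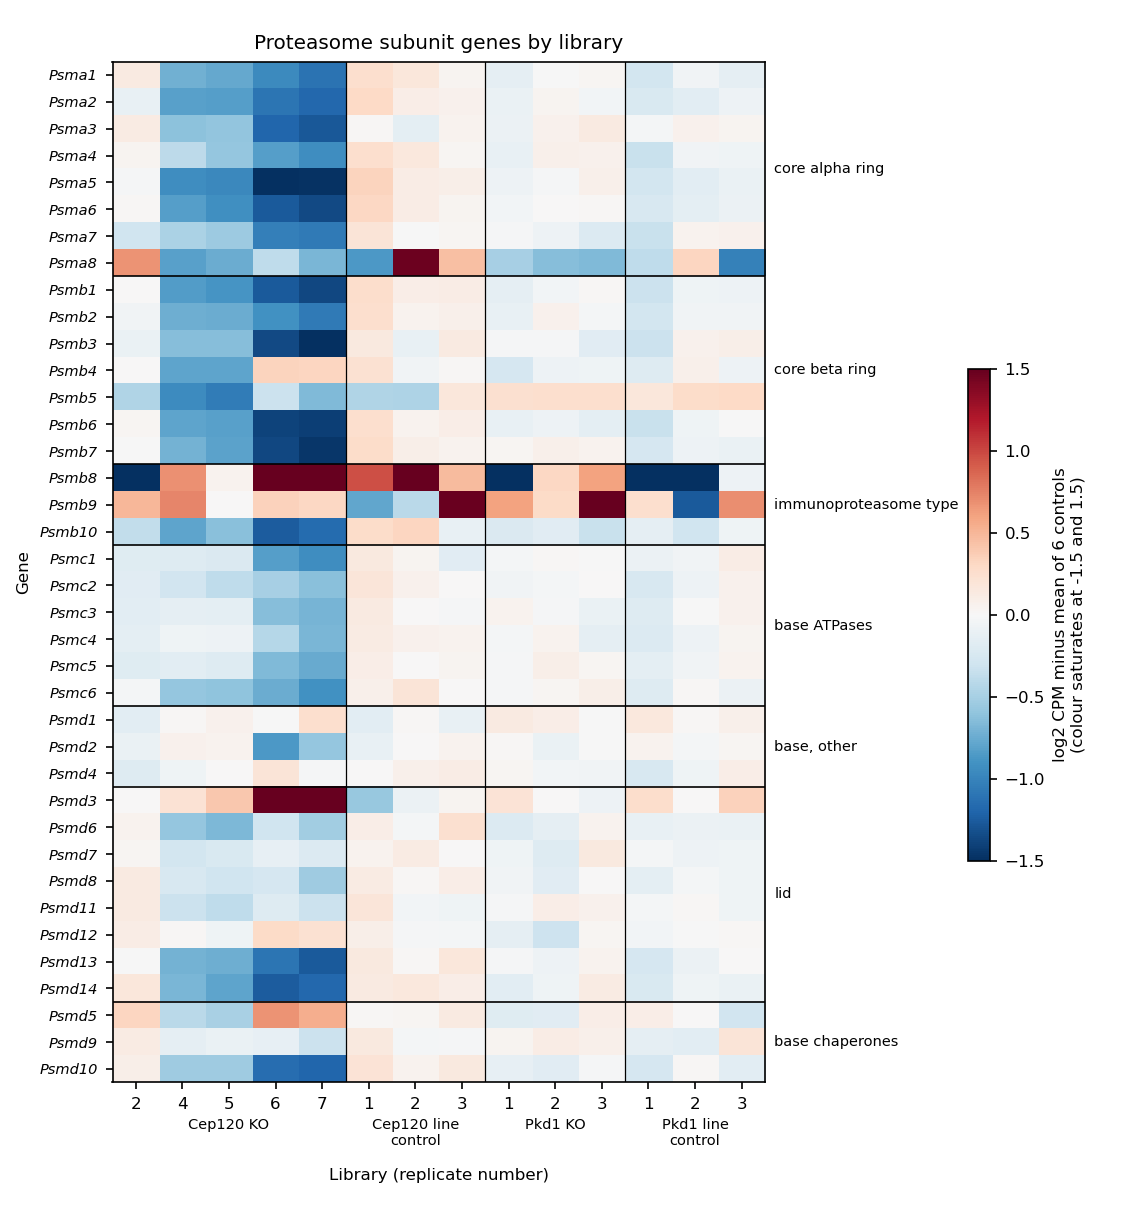
Log2 CPM of the 38 genes tested (rows, by place in the particle) in each of the 14 libraries (columns), each minus the mean over the 6 controls, with blue lower and red higher. Most core genes are lower in libraries 4 to 7 labelled Cep120 KO, where the core median lies between -1.18 and -0.79, while library 2 lies near the controls.

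Among the alpha subunits, which form the outer rings, Psma2 had the smallest p. Psma2 (ENSMUSG00000015671, chromosome 13, 14613240 to 14674236, plus strand) had 481, 294, 293, 243 and 229 CPM in libraries 2, 4, 5, 6 and 7 labelled Cep120 KO, against 640, 554 and 542 CPM in controls 1, 2 and 3. All 5 libraries lay below the controls, library 2 the nearest to them. The mean was 308 ± 101 CPM in the libraries labelled Cep120 KO (SD, n = 5) and 579 ± 53.6 CPM in their controls (n = 3). The log2 fold change was -0.91 (SE 0.21, edgeR adjusted p = 0.0290), and the call held in 9 of 14 fits that each left out 1 library. Psma5 (ENSMUSG00000068749, chromosome 3, 108256926 to 108279974, plus strand) had the most negative fold change of the family, -1.06 (SE 0.28, edgeR adjusted p = 0.0315). It had 641, 341, 331, 220 and 231 CPM in libraries 2, 4, 5, 6 and 7, against 816, 699 and 689 CPM in the controls. The pseudogene Psma5-ps was read at 6.84 to 17.2 CPM in the libraries labelled Cep120 KO and at 19.0 to 23.6 CPM in their controls, and reads could have been split between the copies.

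Psma6 and Psma7 also did not overlap between the groups. Psma6 had 512, 284, 266, 211 and 198 CPM in libraries 2, 4, 5, 6 and 7 labelled Cep120 KO, against 628, 547 and 521 CPM in the controls (log2 fold change -0.94, SE 0.25). Psma7 had 812, 719, 687, 492 and 480 CPM in those libraries, against 1143, 995 and 1019 CPM in the controls (log2 fold change -0.72, SE 0.19). The alpha subunits Psma1 and Psma4 were lower by log2 fold changes of -0.77 and -0.65 (edgeR adjusted p = 0.0418 and 0.0441), with library 2 inside the range of the controls. Psma3, at -0.59, was not called (edgeR adjusted p = 0.117). Psma8, at -1.03 with an SE of 0.61, was not called either (edgeR adjusted p = 0.251), at 8 to 21 counts in the libraries labelled Cep120 KO and 7 to 60 in their controls.

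Among the constitutive beta subunits, Psmb2 had the smallest p. Psmb2 (ENSMUSG00000028837, chromosome 4, 126677630 to 126709714, plus strand), a structural subunit, had 578, 361, 359, 319 and 287 CPM in libraries 2, 4, 5, 6 and 7, against 713, 619 and 633 CPM in the controls (log2 fold change -0.78, SE 0.20, edgeR adjusted p = 0.0312). The groups did not overlap. The cutting subunit Psmb6 (ENSMUSG00000018286, chromosome 11, 70525367 to 70527858, plus strand) had 1093, 621, 612, 410 and 403 CPM, against 1279, 1113 and 1146 CPM in the controls (log2 fold change -0.91, SE 0.27, edgeR adjusted p = 0.0392). The cutting subunit Psmb7 (ENSMUSG00000026750, chromosome 2, 38588036 to 38644087, minus strand) had 386, 238, 223, 150 and 142 CPM, against 472, 415 and 403 CPM in the controls (log2 fold change -0.92, SE 0.26, edgeR adjusted p = 0.0354). Both cutting subunits were lower in all 5 libraries than in any control. Exons of Psmb7 overlap those of Nek6 on the other strand. The structural genes Psmb1 and Psmb3 had log2 fold changes of -0.94 and -0.82 (edgeR adjusted p = 0.0323 and 0.0489).

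Psmb5 and Psmb4 departed from this order. Psmb5 (ENSMUSG00000022193, chromosome 14, 54614119 to 54618022, minus strand), the remaining cutting subunit, had 218, 155, 145, 239 and 188 CPM in libraries 2, 4, 5, 6 and 7, against 218, 216 and 336 CPM in the controls (log2 fold change -0.44, SE 0.19, edgeR adjusted p = 0.123). The groups overlap. All 6 libraries of the Pkd1 line had 337 to 366 CPM of Psmb5, above controls 1 and 2 of the Cep120 line. Psmb4, a structural subunit, had 117, 67.4, 67.7, 148 and 146 CPM, against 137, 112 and 119 CPM in the controls (log2 fold change -0.17, SE 0.25, edgeR adjusted p = 0.677). Libraries 6 and 7 lay above the controls and libraries 4 and 5 below them. Its sign changed with the scale, to 0.14 on the deposited log2 CPM, 0.37 on log2(TPM + 1) and 0.28 with offsets for length and GC content, and that of Psmb5 changed to 0.18 on log2(TPM + 1).

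**Figure D3:**
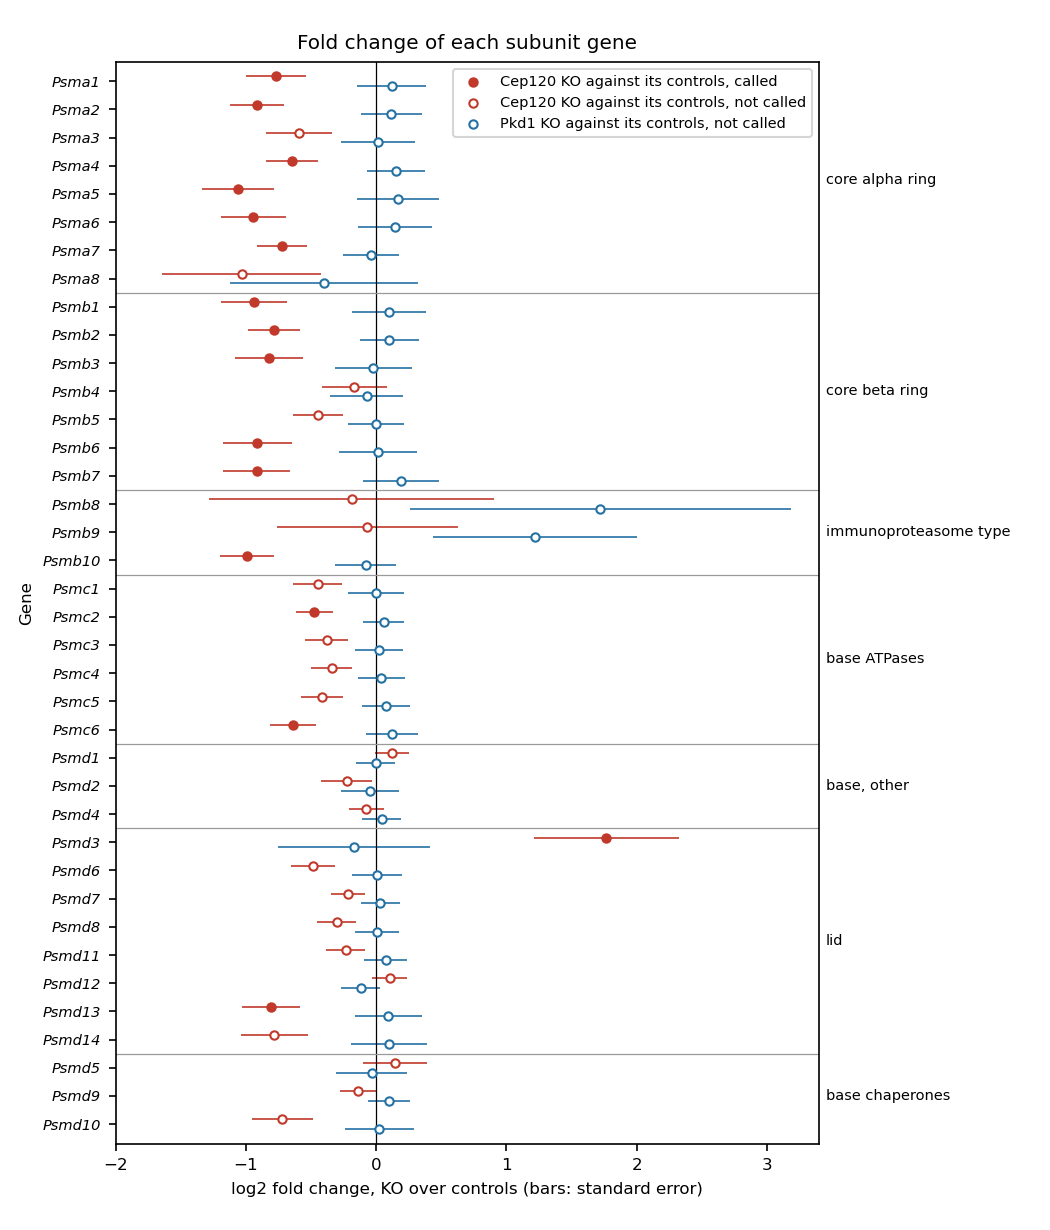
Log2 fold change (KO over its own controls) with its standard error for each of the 38 genes tested, with Cep120 KO in red, Pkd1 KO in blue, and filled points called at an edgeR adjusted p under 0.05. All 15 core genes lie below 0 for Cep120 KO on this TMM scale (Psmb4 and Psmb5 lie above 0 on log2(TPM + 1)), and Psmd3 is the 1 gene called higher.

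In the regulatory particle the ATPase ring lay below its controls by a smaller amount. The 6 ATPase genes Psmc1 to Psmc6 had log2 fold changes between -0.63 and -0.34, of which Psmc6 (-0.63, SE 0.18) and Psmc2 (-0.47, SE 0.14) were called (edgeR adjusted p = 0.0349 and 0.0408). All 6 changed sign on log2(TPM + 1), with values of 0.026 to 0.31. Exons of Psmc3 overlap those of Slc39a13 on the other strand, and exons of the alpha gene Psma4 those of AY074887. The base scaffold genes Psmd1 and Psmd2 and the ubiquitin receptor Psmd4 had log2 fold changes of 0.12, -0.23 and -0.076, none called (edgeR adjusted p = 0.540, 0.442 and 0.727). Of 8 lid genes, Psmd13 fell and Psmd3 rose. Psmd13 (ENSMUSG00000025487, chromosome 7, 140881968 to 140898643, plus strand) had 329, 203, 200, 155 and 138 CPM in libraries 2, 4, 5, 6 and 7, against 368, 335 and 372 CPM in the controls (log2 fold change -0.81, SE 0.23, edgeR adjusted p = 0.0349). The groups did not overlap, and exons of Psmd13 overlap those of Sirt3 on the other strand. The lid genes Psmd14 and Psmd6 missed the threshold at -0.78 and -0.48 (edgeR adjusted p = 0.0545 and 0.0656), as did the base chaperone Psmd10 at -0.72 (edgeR adjusted p = 0.0542).

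Psmd3 stood apart in libraries 6 and 7. Psmd3 (ENSMUSG00000017221, chromosome 11, 98682554 to 98695979, plus strand) had 34.6, 40.0, 45.6, 201 and 192 CPM in libraries 2, 4, 5, 6 and 7 labelled Cep120 KO, against 23.1, 32.3 and 35.2 CPM in the controls. The Pkd1 line ran from 32.6 to 43.8 CPM, close to libraries 2, 4 and 5. Library 2 lay inside the range of the controls. The log2 fold change was 1.77 (SE 0.56, edgeR adjusted p = 0.0489). It was 0.41 without libraries 6 and 7 (edgeR adjusted p = 0.157), and 1.38 or 1.42 without 1 of them (edgeR adjusted p = 0.0925 and 0.0978). The base chaperone Psmd5 had 172, 104, 98.4, 219 and 202 CPM, against 140, 140 and 151 CPM in the controls, and was also highest in libraries 6 and 7 (log2 fold change 0.15, edgeR adjusted p = 0.711, and -0.20 without libraries 6 and 7). These are the libraries with the low ureteric bud and high nephron progenitor sums. Of the 8 nephron progenitor markers, Six2 had 127 and 86.1 CPM in libraries 6 and 7 and 0.853 to 1.18 CPM in libraries 2, 4 and 5, against 0.616 to 0.737 CPM in the controls. Meox1, Eya1, Crym, Osr1 and Gdnf were also higher in libraries 6 and 7 than in any control. Cited1 was not, at 50.8 and 33.2 CPM against 35.4 to 55.5 CPM in the controls. Tmem100 was near its controls, at 8.49 and 9.55 CPM against 6.11 to 9.51 CPM. The part of these marker lists in the Psmd3, Psmd5 and Psmb4 values was not tested.

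**Figure D4:**
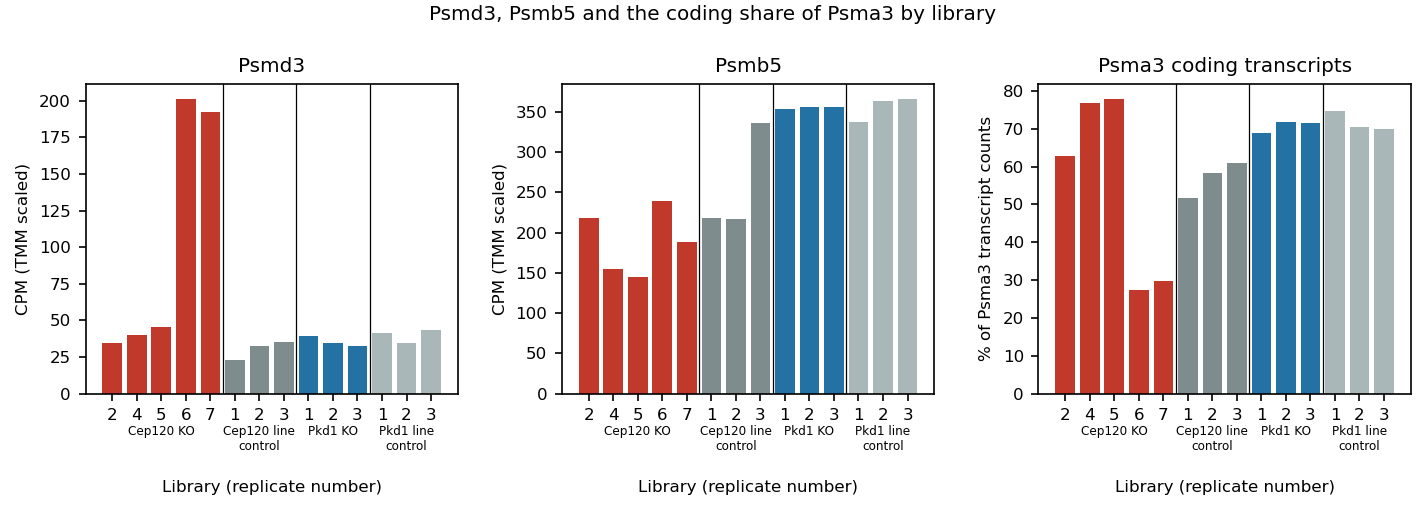
CPM of Psmd3 and of Psmb5, and the percentage of Psma3 transcript counts on coding transcripts, in each of the 14 libraries (bars, coloured by group). Psmd3 reaches 201 and 192 CPM in libraries 6 and 7 labelled Cep120 KO, Psmb5 is at or below 239 CPM in that group and in controls 1 and 2 of its line, and the Psma3 coding share is 27.5 and 29.7% in libraries 6 and 7.

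Psmb10 had the smallest p of the family. It had 17.3, 13.0, 14.5, 9.39 and 10.00 CPM in libraries 2, 4, 5, 6 and 7 labelled Cep120 KO, against 27.3, 28.0 and 20.9 CPM in the controls. The groups did not overlap. The log2 fold change was -0.99 (SE 0.21, edgeR adjusted p = 0.0290), and the call held in 10 of 14 fits that each left out 1 library. The summed level of 13 leukocyte markers was 23.7, 25.5, 25.0, 47.0 and 47.9 CPM in libraries 2, 4, 5, 6 and 7. It was 137, 397 and 99.8 CPM in controls 1, 2 and 3, and Pf4 alone made 300.5 CPM of it in control 2. The Pkd1 line ran from 37.3 to 80.7 CPM. Among the libraries labelled Cep120 KO, libraries 6 and 7 had the highest sums and the lowest Psmb10. The part of these 13 markers in the Psmb10 value was not tested. Of those 13, 4 fell and 0 rose. The macrophage and megakaryocyte genes Csf1r, Aif1 and Pf4 were at 0 in library 2. The other markers were read there, from 0.131 CPM (Laptm5 and Lyz2) to 18.1 CPM (Coro1a). In libraries 6 and 7, C1qa, C1qb and C1qc lay inside the range of the controls. Ptprc, the pan-leukocyte surface phosphatase, had 0.537 to 3.82 CPM in the libraries labelled Cep120 KO and 2.94 to 6.16 CPM in their controls. Psmb8 and Psmb9 were not called (edgeR adjusted p = 0.921 and 0.956), with standard errors of 1.09 and 0.70 on the log2 scale.

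The distance between core and regulatory genes was then followed on different scales, since scaling moved all genes. The median of all genes tested was 0.12 on TMM-scaled CPM, 0.45 on the deposited log2 CPM and 0.42 on log2(TPM + 1). Relative to it, the core median was -0.94, -0.90 and -0.61 on those scales, and the regulatory median -0.44, -0.40 and -0.094. Over all genes, 1418 were higher and 1057 lower with edgeR, against 2638 and 556 with limma-trend on the deposited log2 CPM and 4465 and 272 on log2(TPM + 1). On log2(TPM + 1) with limma-trend, 4 core genes were lower and 0 higher, while 9 regulatory genes were higher and 0 lower. The direction of the regulatory genes therefore depended on the scale.

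The difference between the classes was also taken within each library. On CPM, the core median minus the regulatory median was 0.0010, -0.57, -0.56, -0.73 and -0.63 in libraries 2, 4, 5, 6 and 7 labelled Cep120 KO, against 0.14, 0.073 and 0.025 in their controls. On log2(TPM + 1) it was -0.017, -0.61, -0.56, -0.67 and -0.56 in those libraries, against 0.15, 0.070 and 0.064 in the controls. Libraries 4 to 7 lay below every other library, and library 2 lay among the other groups. Each gene was set against its own mean in controls, so library scaling and a fixed gene length cancel in this difference, and its likeness on both scales is no support for it. Summed per class, core genes had 8001, 7531, 7329, 6262 and 6204 TPM in libraries 2, 4, 5, 6 and 7, against 8495, 7830 and 8440 TPM in the controls. Regulatory genes had 3659, 4748, 4652, 4567 and 4509 TPM, against 3519, 3561 and 3691 TPM in the controls. Core sums were thus lower and regulatory sums higher in libraries 4 to 7 than in any control of that line.

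**Figure D5:**
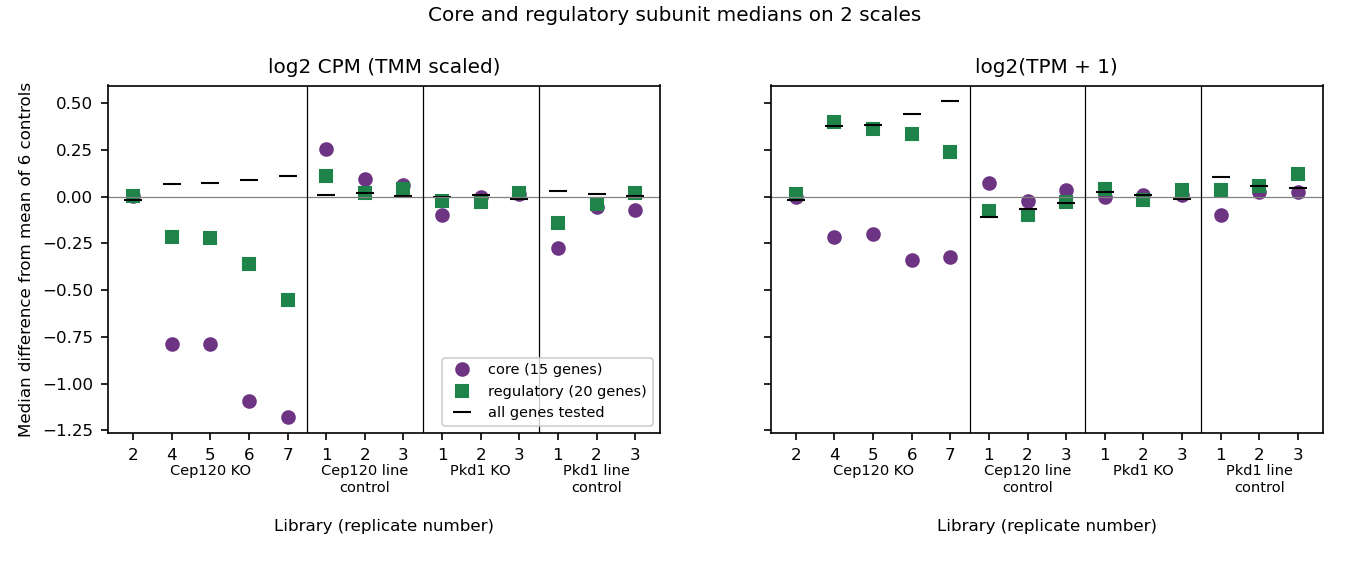
Median difference from the mean of the 6 controls for core genes (circles), regulatory genes (squares) and all genes tested (dashes) in each of the 14 libraries, on log2 CPM (left) and log2(TPM + 1) (right). In libraries 4 to 7 labelled Cep120 KO the core median lies below the regulatory median by a difference between -0.73 and -0.56, while the regulatory median is below 0 on the left and above 0 on the right.

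Transcript length moved with these differences. For Cep120 KO, the median log2 fold change was -0.53 over the 10% of genes with the shortest transcripts (57 to 940 bases) and 0.70 over the 10% with the longest. Length was that of the longest protein-coding transcript of each gene, or of its longest transcript where it had no coding one. By that measure the median was 1165 bases for core genes and 1887 bases for regulatory genes. In libraries 4, 5, 6 and 7 the core median was -0.79, -0.79, -1.10 and -1.18 on log2 CPM, and the median of the shortest 10% of all genes was -0.44, -0.48, -0.65 and -0.62. As a description, Pearson's r between fold change and log2 length was 0.41 across the 38 genes, -0.10 within the 15 core genes and 0.35 within the 20 regulatory genes, and r with GC content was 0.35 across the 38. The genes share libraries and are not independent. With offsets for length and GC content in the edgeR fit, 94 genes were higher and 62 lower over all genes, and Psma2 was the 1 gene of the family called (log2 fold change -0.69, adjusted p = 0.0424). The core median was then -0.39 and the regulatory median -0.15, closer together than the -0.82 and -0.32 without offsets.

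In the Pkd1 line, no gene of the family was called. With edgeR 0 of 38 passed and 0 were at an unadjusted p under 0.05, where 0.0% of all genes were called and 259 were at an unadjusted p under 0.05. DESeq2 and limma-voom also called 0 of the 38. The edgeR standard errors and p-values here rest on a spread estimated over all 14 libraries, the Cep120 KO group included. With only the Pkd1 groups in the edgeR fit, 0 of 37 were called and 1 was at an unadjusted p under 0.05. Of all genes in that fit, 0.0201% were called and 5.05% were at such a p. The median log2 fold change was 0.10 for core genes and 0.029 for regulatory genes, beside -0.0053 for all genes. The cutting subunit Psmb5 measured 353, 355 and 356 CPM in Pkd1 KO libraries, against 337, 363 and 366 CPM in their controls. Psmb6 had 992, 1020 and 966 CPM, against 852, 1028 and 1066 CPM in the controls. Psmb7 had 397, 410 and 403 CPM, against 327, 369 and 364 CPM in the controls (log2 fold change 0.19, SE 0.29). For Psmb7, Psma5 and Psma6 all KO libraries lay above all controls, and for 0 genes below, where 4.88% and 6.19% of all genes did so.

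Among immunoproteasome-type genes, Psmb10 measured 19.2, 19.9 and 17.8 CPM in Pkd1 KO libraries, against 20.5, 18.3 and 21.5 CPM in their controls. Psmb9 had 10, 19 and 40 counts, against 15, 4 and 22 in the controls (log2 fold change 1.22, SE 0.78, edgeR adjusted p = 1). The groups overlap for both genes, and Psmb8 was at 0 to 7 counts in that line. Psmb9 had the smallest p of the family in this comparison. Psma4 had a log2 fold change of 0.15 (SE 0.22), the lid gene Psmd12 one of -0.12 (SE 0.15) and the base chaperone Psmd9 one of 0.10 (SE 0.16).

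Whether the KO labels differ in their effect was tested in the same fit. With edgeR 0 of 38 genes and 0.0% of all genes were called, and 16 of the 38 were at an unadjusted p under 0.05, as were 20.4% of all genes. DESeq2 called 1 of the 38, where it called 4.24% of all genes, and limma-voom called 23, where it called 26% of all genes, each of the family lower for Cep120 KO. The limma-voom fit weighted each library by its estimated quality. Weights were 3.85 and 3.34 for Cep120 KO libraries 4 and 5, against 0.163, 0.125 and 0.138 for libraries 2, 6 and 7. Its calls thus drew mostly on libraries 4 and 5 of that group. Psma2 had the smallest p, with a difference of -1.03 (SE 0.32, edgeR adjusted p = 0.176), and was called without library 2 (edgeR adjusted p = 0.000845), where 18.7% of all genes were. An unequal effect of the labels was therefore not shown with edgeR on all libraries.

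Controls of the Cep120 line were set against controls of the Pkd1 line, and these libraries also enter the comparisons above. With edgeR 0 of 38 genes were called, where 0.124% of all genes were (0.107% higher and 0.0178% lower), and 1 was at an unadjusted p under 0.05. DESeq2 and limma-voom called 0 of the 38. In the edgeR fit on all libraries, 4.89% of all genes were at an unadjusted p under 0.05. With only these control groups in the edgeR fit, 0 of 37 were called and 12 were at an unadjusted p under 0.05. Of all genes in that fit, 0.927% were called and 16.3% were at such a p. With limma-voom, 13 of the 38 were at an unadjusted p under 0.05, as were 15.9% of all genes. For 17 of the 38 genes all Cep120-line controls lay above all Pkd1-line controls, and for 1, Psmb5, below, where 11.5% and 9.99% of all genes did so. The 17 comprise 9 core genes, Psmb8 and 7 regulatory genes. Psmb8 had the smallest p (edgeR adjusted p = 0.998), with 8, 23 and 5 counts in the Cep120-line controls against 0, 0 and 4 in the Pkd1-line controls. The log2 difference of Psmb5 was -0.47 (SE 0.22, edgeR adjusted p = 0.998).

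Partner genes of the particle were counted in lists of their own for Cep120 KO, where 8.4% of all genes rose and 6.26% fell. Without library 7, or without any 1 control of that line, edgeR called 0.0112 to 0.0485% of all genes. The list counts thus rest on few libraries, as those of the family do. Of 2 further subunit genes, 0 rose and 1 fell. The small lid subunit Sem1 had 362, 247, 247, 119 and 123 CPM in libraries 2, 4, 5, 6 and 7, against 526, 434 and 464 CPM in the controls (log2 fold change -1.11, SE 0.29, edgeR adjusted p = 0.0321). Of 5 core assembly chaperones, 0 rose and 2 fell, Psmg2 (-0.61, SE 0.14) and Pomp (-0.83, SE 0.22). Of 5 genes for alternative caps and an inhibitor, 0 rose and 1 fell, the interferon-inducible cap subunit Psme2 (-0.88, SE 0.21). Of 12 proteasome-associated genes tested 0 were called, and the ubiquitin shuttle Ubqln4 had the smallest p (0.74, edgeR adjusted p = 0.0987). Among ubiquitin genes, Rps27a, which encodes ubiquitin fused to a ribosomal protein, fell (-1.05, SE 0.27, edgeR adjusted p = 0.0315).

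Of 10 transcriptional regulators of proteasome genes, 3 rose and 0 fell, where 8.4% of all genes rose and 6.26% fell. Their median log2 fold change was 0.51, beside 0.12 for all genes. Nfe2l1, a factor that raises subunit transcription when proteasome activity is short, had 19.8, 57.3, 64.5, 39.2 and 53.1 CPM in libraries 2, 4, 5, 6 and 7 labelled Cep120 KO, against 11.2, 19.8 and 18.3 CPM in the controls (log2 fold change 1.51, SE 0.35, edgeR adjusted p = 0.0292). Library 2 lay level with the highest control. Nfya, a subunit of the transcription factor NF-Y, and Mafk, a small Maf partner, had log2 fold changes of 1.13 (SE 0.23) and 1.17 (SE 0.33). Of 10 genes tested of class I antigen display and interferon response, Irf1 rose (1.57, SE 0.48) and B2m, the light chain of class I molecules, fell (-1.03, SE 0.31).

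Markers of other cell types were counted in the same way for Cep120 KO, where 8.4% of all genes rose and 6.26% fell. Of 13 leukocyte markers, 0 rose and 4 fell, with Coro1a (-1.70), Fcer1g (-2.47) and Pf4 (-6.93) at the smallest p. Of 8 nephron progenitor markers 1 rose, Six2 (5.98). Of 7 nascent nephron markers tested, Wnt4 (3.65) and Ccnd1 (0.66) rose and Nphs1 (-1.06) fell. Of 12 ureteric bud markers 1 rose, Pax2 (1.44). It had 12.6, 22.8, 27.1, 61.9 and 54.6 CPM in libraries 2, 4, 5, 6 and 7, against 11.1 to 15.2 CPM in the controls. Its highest values were thus in libraries 6 and 7, where the summed ureteric bud markers were lowest. Of 8 stromal and 7 endothelial markers 0 were called, the smallest p being that of Foxd1 and Egfl7. Of 8 erythroid markers 0 were called. In the Pkd1 KO libraries, in the difference of the effects and between the controls, 0 genes of these 14 lists were called by edgeR.

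Deposited transcript counts showed a feature that gene counts do not. They were used for the 27 genes whose listed transcripts held at least 99% of the gene count. For Psma3 (ENSMUSG00000060073, chromosome 12, 70974621 to 70996347, plus strand), coding transcripts took 62.9, 76.9, 77.9, 27.5 and 29.7% of counts in libraries 2, 4, 5, 6 and 7 labelled Cep120 KO, against 51.6, 58.3 and 60.9% in the controls. They took 68.8 to 71.8% in the Pkd1 KO libraries, against 70.0 to 74.7% in their controls. Transcripts that retain an intron held 51.3 and 53.4% of Psma3 counts in libraries 6 and 7. Psmd1 had 75.2 and 74.4% coding in libraries 6 and 7, against 82.8 to 99.1% in the other 12. Psmb10 was counted mostly on transcripts that retain an intron, 55.5 to 77.8% over the 14 libraries, and its coding transcript held 18.0 to 35.1%. Over 23 genes with at least 200 counts in every library, transcripts that retain an intron took 5.39 and 5.61% of counts in libraries 6 and 7, against 3.23 to 4.09% in the other 12. The shares rest on the authors' assignment of reads to transcripts, whose method is not given in the sources used here.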

How the data were processed

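Bulk RNA from GFP-sorted ureteric bud cells was amplified with a low-input kit that does not mark strand, per the labels' protocols. The authors deposited estimated counts per gene and per transcript, TPM and moderated log2 CPM, per the file headers. DRAGEN and the build mm9 are listed, with no role or version, per the submitters' processing notes. Gene positions, lengths and GC content came from GENCODE M21 (GRCm38), and no coordinates were converted.

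Of 55774 lines, 287 repeated lines were dropped. Estimated counts were rounded and tested with edgeR 4.0.16 in R 4.3.3 (quasi-likelihood, 4 group means over 14 libraries, 10 residual degrees of freedom, filterByExpr with a minimum count of 10, TMM, Benjamini-Hochberg adjustment over 16876 genes, called under 0.05). Replicate groups came from titles and genotype labels. The log2 CPM drawn in the figures used a prior count of 2. Alternatives used DESeq2 1.42.0, limma 3.58.1 and offsets for length and GC content from mgcv 1.9.3. Limma was run on voom values with library quality weights, on the deposited log2 CPM and on log2(TPM + 1), with a pseudocount of 1. The test was checked on simulated data. The limit that a count of 0 allows was set at 3 counts. The TPM alternative was added after seeing the data. Protein identity was not analysed here. Some genes of the other lists are not reported here.

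Genes and lists were chosen with earlier results of these data known. Named genes were the cutting subunits and their inducible counterparts, the tissue-restricted forms, the 6 with the smallest p in each KO comparison, the highest and lowest fold change of each class, and up to 3 called genes per list; Psma3, Psmb4, Psmd1, Psmd5 and further genes were named after their values were seen.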

Additional observations from a re-analysis of the deposited data

Results flagged for a closer look

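In the 5 libraries labelled Cep120 KO, library 2 was the highest for 8 of the 38 genes tested by a gap that exceeded Dixon's 95% critical value of 0.71 for 5 samples. The gap to the next library, as a share of the whole range, was 0.773 for Psma1, 0.742 for Psma2, 0.713 for Psma5, 0.725 for Psma6 and 0.808 for Psma8. It was 0.719 for Psmb1, 0.745 for Psmb2 and 0.717 for Psmd14. Chance flags about 1 in 20 groups, and the genes share their libraries, so the 8 are not independent. The share flagged over all genes was not computed, so the 8 cannot be read as particular to this family. Leaving out library 2 also moved the calls over all genes, from 14.7% to 34%.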

How the results depend on the processing

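For Cep120 KO the 16 calls of the family became 0 with only its own groups in the fit (19 at an unadjusted p under 0.05; 0% of all genes called), 27 with limma-voom (39.5% of all genes), 1 with length and GC offsets (0.925%), 3 without libraries 6 and 7 (6.41%), 4 without libraries 4 and 5 (12.4%), 5 with libraries 4 and 5 summed (8.32%), and 0 to 25 when 1 library was left out (0.0112 to 34%). With library 2 as the only KO library the number was 0 (0.0278%), the lone sample being assumed to vary like the other groups, so this count says nothing about stability. Calls for the difference between the effects became 1 with DESeq2, 23 with limma-voom and 0 to 19 when 1 library was left out, 19 being without library 2. By its quality weights, limma-voom drew mostly on libraries 4 and 5 of the Cep120 KO group. The core median for Cep120 KO was -0.19 on log2(TPM + 1) and -0.13 with library 2 alone. The regulatory median was 0.047 on deposited log2 CPM, 0.33 on log2(TPM + 1) and -0.043 with library 2 alone, and the immunoproteasome-type median -0.92 with limma-voom. For Pkd1 KO the core median was 0.036 with offsets, 0.024 on log2(TPM + 1) and 0.025 to 0.14 when 1 library was left out. The regulatory median was -0.011 on deposited log2 CPM, -0.0032 with offsets, -0.050 on log2(TPM + 1) and -0.00059 to 0.057 when 1 library was left out. The immunoproteasome-type median, 1.22, was 0.79 without the count filter, 0.57 with only its own groups, 0.20 on log2(TPM + 1) and 0.38 to 1.71 when 1 library was left out. These genes had few counts. Values that changed sign on log2(TPM + 1) were Psmb4 0.37, Psmb5 0.18, Psmb8 0.14, Psmb9 0.34, Psmc1 0.18, Psmc2 0.17, Psmc3 0.28, Psmc4 0.31, Psmc5 0.21, Psmc6 0.026, Psmd2 0.39, Psmd4 0.55, Psmd6 0.14, Psmd7 0.44, Psmd8 0.34, Psmd9 0.45 and Psmd11 0.43 for Cep120 KO, and Psmb6 -0.078 for Pkd1 KO. On deposited log2 CPM they were Psmb4 0.14, Psmb9 0.71, Psmc4 0.026, Psmd2 0.12, Psmd4 0.31, Psmd7 0.17, Psmd8 0.068, Psmd9 0.25 and Psmd11 0.14, and Psmb6 -0.016 for Pkd1 KO. With offsets they were Psmb4 0.28, Psmb9 0.15, Psmd4 0.033 and Psmd7 0.11, and Psmb6 -0.042 for Pkd1 KO. With library 2 alone they were Psma3 0.17, Psma8 0.036, Psmb9 0.071, Psmd1 -0.057, Psmd8 0.070, Psmd9 0.11, Psmd11 0.13 and Psmd14 0.056. With limma-voom they were Psmb9 0.44, Psmd2 0.039, Psmd5 -0.44 and Psmd12 -0.022. They were Psmb4 0.16 and Psmb8 0.17 without libraries 4 and 5, and Psmd2 0.019 and Psmd5 -0.20 without libraries 6 and 7. Leaving out 1 library gave -0.49 to 0.37 for Psmb8 and -0.47 to 1.13 for Psmb9 in Cep120 KO, and -0.70 to 0.069 for Psma8, -0.032 to 0.020 for Psmb5 and -0.071 to 0.078 for Psmb6 in Pkd1 KO. Psmb5 for Pkd1 KO was 0.0043 with DESeq2 size factors and with DESeq2, and 0.0060 with only its own groups. For each of these changes the cause was not tested. Replicate numbers in the Pkd1 line share only a number: same-numbered KO and control libraries had correlations of -0.045, -0.029 and -0.124. With the replicate block 0 genes of the family were called, the immunoproteasome-type median was 0.59 and Psmb5 was 0.0069. No paired analysis was possible for the Cep120 line because its groups share 1 replicate number. Depth limits Psmb8, Psmb9, Psmb11 and Psma8.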
